A study of Mus musculus with 12 samples.

Results

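The 3 untreated libraries of this study, out of 12 in all, describe the messenger RNA of mouse cells labelled bone marrow monocytes before any exposure to platelets or bacterial lipopolysaccharide (LPS). They were chosen by their titles and by a treatment label of none, and no measured value was used. The mice were wild-type animals of the strain C57Bl6J. The sources used here do not give age, sex, the way the cells were isolated, or whether they were cultured before lysis. The other 9 libraries, which received platelets, LPS or both, were not used. No label tells whether the 3 libraries represent different animals or cultures, and the spread between them may therefore be technical. With a single group there is no contrast, and no test was made.

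Monocytes are circulating myeloid cells that form in the bone marrow under the growth factor receptor CSF1R and the transcription factor PU.1. They carry receptors for bacterial products, complement fragments, chemokines and antibody-coated particles, and they can mature into macrophages. In mice, classical monocytes are known by high Ly6C and CCR2, and nonclassical monocytes by high CX3CR1 and the orphan receptor NR4A1. Mature macrophages are rich in lysosomal proteases, lipid-handling proteins and complement C1q.

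Total counts were 24520148, 24732601 and 26090209 in replicates 1, 2 and 3, and 17995, 18249 and 18055 genes had a count. Levels of a single gene across libraries are in CPM, counts scaled to the library's effective size, where 3 counts correspond to 0.115 to 0.122 CPM. To set genes beside each other, counts were divided by the summed exon length of each gene and scaled to an equal sum in each library, which gives transcript units known as TPM. A gene counts as expressed here at 1 TPM or more in all 3 libraries, a fixed level and not a test. A value of 0 counts needs care, because the mitochondrial coding genes mt-Co2, mt-Co3, mt-Atp6, mt-Atp8 and mt-Nd4l, which cells with working mitochondria use, were also at 0 in all 3 libraries. Of 21777 nuclear protein-coding genes, 9810 (45.0%) were expressed, which is the background for each list below. The typical spread of a gene between libraries beyond counting error, the biological coefficient of variation of edgeR, was 8.67%, and it was 6.63% without replicate 3 and 10.7% without replicate 2.

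Promoter sequences are shown for 4 genes whose transcripts are described below, so that the start regions of abundant genes can be read beside their levels. The RefSeq windows of build GRCm38.p6, 250 bases before to 50 after a start, held 644 of the 855 listed genes. They were searched on both strands for 4 motifs after the levels had been seen: GAGGAA, a core read by PU.1 and related ETS factors, TCACGTGA, read by TFEB and TFE3, TGACNNNGC, read by NRF2, and TGAGTCA, the AP-1 site. Matches of the last 2 can overlap, since TGACTCA, the other strand of the AP-1 site, begins with TGAC. The 4 genes were chosen after the search because they hold a match. Only the 250 bases before the start are printed, 5′ to 3′ on the gene's strand, and capitals mark the match or its reverse complement. Counted back from the start, GAGGAA begins at -225 in Cd68 (chr11:69666171-69666420, minus strand) and at -164 in Ctss (chr3:95526536-95526785, plus strand). Its reverse complement TTCCTC begins at -8 in Pf4 (chr5:90772185-90772434, plus strand). TCACGTGA begins at -99 in Ctsd (chr7:142387828-142388077, minus strand). Cd68 and Ctss each hold a further GAGGAA match after the start, which is not printed.
Cd68: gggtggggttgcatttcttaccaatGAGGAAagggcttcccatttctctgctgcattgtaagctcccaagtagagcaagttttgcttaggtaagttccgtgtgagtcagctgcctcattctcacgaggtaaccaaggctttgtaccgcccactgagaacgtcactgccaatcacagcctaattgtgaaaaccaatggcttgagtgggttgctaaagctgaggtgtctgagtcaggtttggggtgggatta
Ctss: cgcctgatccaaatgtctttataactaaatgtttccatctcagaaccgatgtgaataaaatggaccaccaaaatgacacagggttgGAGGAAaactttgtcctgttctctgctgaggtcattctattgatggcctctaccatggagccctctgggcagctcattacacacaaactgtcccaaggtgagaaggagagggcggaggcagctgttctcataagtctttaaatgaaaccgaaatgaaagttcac
Pf4: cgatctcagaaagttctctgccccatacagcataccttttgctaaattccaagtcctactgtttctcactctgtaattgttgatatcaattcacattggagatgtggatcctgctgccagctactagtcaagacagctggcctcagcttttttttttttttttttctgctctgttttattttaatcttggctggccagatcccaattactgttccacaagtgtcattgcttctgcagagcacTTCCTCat
Ctsd: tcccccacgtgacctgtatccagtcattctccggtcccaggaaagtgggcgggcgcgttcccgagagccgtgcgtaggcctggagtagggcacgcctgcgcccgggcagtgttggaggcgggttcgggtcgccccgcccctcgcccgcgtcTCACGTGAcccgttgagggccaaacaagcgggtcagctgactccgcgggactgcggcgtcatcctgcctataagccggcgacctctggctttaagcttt

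GAGGAA was found in the window of 31.3% of all 27025 genes with a window and of 30.3% of the expressed ones. Among the list of shared myeloid genes it was in 13 of 20 windows (65%), among macrophage maturation genes in 15 of 25 (60%), and among the 100 highest genes in 27 (27%). Lists with a low median level here held it as often. It was in 13 of 19 (68.4%) windows of neutrophil markers, a list with a median of 2.29 TPM. Among T cell markers, with a median of 0.0241 TPM, it was in 7 of 11 windows (63.6%). TCACGTGA was in the window of 1.12% of all genes, of 2.50% of the expressed ones and in 2 of 23 lysosomal genes (8.70%), namely Ctsa and Ctsd. TGACNNNGC was in 13.99% and TGAGTCA in 5.95% of all genes with a window. A match describes letters in a window, not a bound site.

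A small number of genes held much of the RNA. The 10 genes with the highest mean share over the libraries took 13.7% ± 0.367 (SD, n = 3) of the counts. The 100 highest by that mean took 29.7% ± 0.604, and 525 genes were enough for 50% of all counts. Lyz2, which encodes the lysozyme of myeloid cells, stood at 75614, 76363 and 77862 TPM in replicates 1, 2 and 3, a mean of 76613 ± 1145 (SD, n = 3). Its near-identical partner Lyz1 stood at 105, 109 and 113 TPM, and how reads shared by the pair were counted is not given in the sources used here. Fth1 and Ftl1, the heavy and light chains of the iron store ferritin, had means of 22319.8 ± 435 and 20621 ± 1109 TPM. Between them lay Tmsb4x, an actin-sequestering peptide, with 21615 ± 1089.7 TPM, and below them Actb, cytoplasmic actin, with 18072 ± 640.1 TPM.

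Pf4, the gene of platelet factor 4, was the sixth of the nuclear protein-coding genes at 16564, 16907 and 18166 TPM, and it was highest in replicate 3. The galectins Lgals1 and Lgals3 had means of 10849 ± 892 and 7215 ± 369.6 TPM. Lysosomal proteins followed: the protease genes Ctsd (9819 ± 368 TPM), Ctsb (6775 ± 199) and Ctss (4455 ± 113), the saposin precursor Psap (4586 ± 467) and the membrane protein Cd68 (4563 ± 58.9). Cstb, which encodes the cathepsin inhibitor cystatin B, had 5429 ± 335 TPM. The signalling adaptors Tyrobp, which encodes DAP12, and Fcer1g, the Fc receptor gamma chain, had 7075 ± 501 and 4459.9 ± 333 TPM. Hmox1 (haem oxygenase, 5093 ± 205 TPM), Gpx1 (glutathione peroxidase, 4638 ± 299.5), Prdx1 (peroxiredoxin, 3646 ± 83.5) and the chemokine gene Ccl2 (3924 ± 156) completed the 20 highest. Some neighbours in this order overlapped between libraries, such as Fth1 and Tmsb4x or Actb and Pf4. Others did not, such as Pf4 and Lgals1 or Ctsd and Lgals3, and Lyz2 lay apart from all of them.

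**Figure D1:**
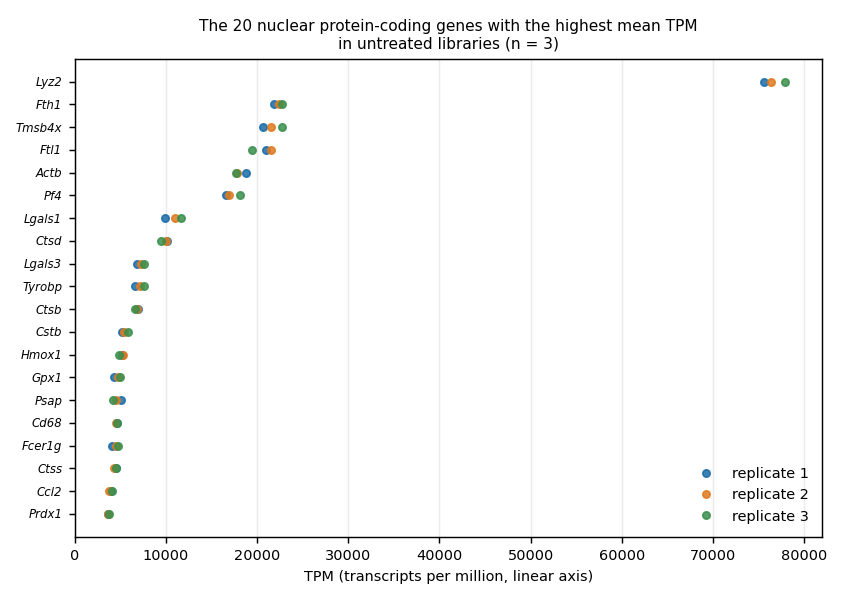
TPM (linear axis) of the 20 nuclear protein-coding genes with the highest mean, with 1 point per untreated library. Lyz2 lies between 75614 and 77862 TPM, apart from a group of 5 genes between 16564 and 22766.

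The order of genes depends on the length used. With the longest transcript in place of the summed exons, 18 of the 20 highest genes were the same, and with the median transcript length 11 were. Under the median length 7193 of 10758 expressed genes (66.9%) moved by over 1.5 times, and Fth1 (38362 TPM) lay above Lyz2 (27139 TPM). All levels below use the summed exons. Ratios between 2 genes were chosen after the levels were seen, and those whose order turns with the length are named.

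The genes shared by monocytes, macrophages and other myeloid cells were all present. All 32 of 32 were expressed, 28 of them at 100 TPM or more, and together they held 12.4 to 12.8% of TPM. The list was chosen with earlier results of these data known, so the full count may in part reflect that choice. Csf1r, the receptor for the growth factor that monocytes need, stood at 831, 786 and 695 TPM in replicates 1, 2 and 3 (mean 771 ± 69.5). Cd14, a coreceptor for LPS, stood at 372, 391 and 399 TPM, lowest in replicate 1. Cyba, a subunit of the phagocyte oxidase, had 3307 ± 247 TPM and the cystatin gene Cst3 2462 ± 145 TPM. The lowest of the list were Ptprc, which encodes CD45, at 34.6 ± 2.79 TPM and Csf2rb, the shared beta chain of the GM-CSF receptor, at 18.5 ± 2.80 TPM, both named after their values were seen.

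Of 24 markers of classical monocytes 22 were expressed, together 0.560 to 0.609% of TPM. Ly6c2, which encodes the Ly6C antigen, stood at 44.4, 42.9 and 48.3 TPM, and Ccr2, the receptor that draws monocytes out of the marrow, at 113, 97.4 and 97.4 TPM. The calcium-binding protein genes S100a6 and S100a4 had 2229 ± 211 and 930.1 ± 104 TPM, and F13a1, coagulation factor XIII subunit A, 463 ± 63.1 TPM. S100a8 and S100a9, which form calprotectin, had 76.7 ± 6.11 and 39.4 ± 13.1 TPM. S100a9 stood at 9.08, 7.75 and 4.85 CPM in replicates 1, 2 and 3, with replicate 3 apart from the other 2. Fn1, fibronectin, was also lowest in replicate 3, at 986, 923 and 638 CPM. At the low end, named after their values were seen, the proteoglycan gene Vcan had 1.93 ± 0.170 TPM, Plac8 1.08 ± 0.132 TPM and the chemokine receptor gene Cxcr2 only 0, 3 and 1 counts.

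Nonclassical markers were mixed as well, with 17 of 24 expressed. Cx3cr1, the fractalkine receptor, stood at 106, 101 and 83.7 TPM, lowest in replicate 3. Its level was 0.943 ± 0.0884 times that of Ccr2 (SD, n = 3), above it in replicate 2 and below it in the other 2, and 0.545 times under the median transcript length, so the pair is not ordered by these data. The scavenger receptor Cd36, which nonclassical cells share with macrophages, had 1512 ± 117 TPM, the tetraspanin Cd9 336 ± 12.3 TPM and Treml4 58.1 ± 2.87 TPM. Nr4a1, the factor on which nonclassical monocytes depend, was low at 6.77, 6.19 and 5.44 TPM. Ace, angiotensin-converting enzyme, had 4, 1 and 5 counts (named after its values were seen), and Apoc2 and Ace3 had none.

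Genes linked to macrophage maturation were abundant in these libraries, which is not what the label monocyte alone describes. Of 35, 31 were expressed, 18 at 100 TPM or more and 10 at 1000 or more. Their sum was 4.10 to 4.30% of TPM, and it stayed at 31617 to 32942 TPM per library without Ctsd, the highest of them. Spp1, osteopontin, stood at 3509, 3635 and 3675 TPM, and Apoe, the lipid carrier, at 3192, 3092 and 2998 TPM. The lipid droplet protein gene Plin2 had 3199 ± 101 TPM, the proteases Ctsl and Lgmn 1959 ± 41.3 and 1899 ± 83.1 TPM, and the lipase Lpl 569 ± 7.10 TPM. Adgre1, which encodes the macrophage antigen F4/80, stood at 875, 775 and 736 TPM, 17.7 ± 2.27 times Ly6c2.

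Other maturation genes were named after their values were seen. The complement genes C1qa, C1qb and C1qc had 329.8 ± 14.2, 1726 ± 56.2 and 441 ± 13.99 TPM, Gpnmb 1204 ± 73.9 TPM and the lipid receptor Trem2 332 ± 13.1 TPM. The mannose receptor Mrc1 stood at 29.4 ± 5.44 TPM, Cd163, the haemoglobin scavenger receptor, at 8.89 ± 0.740 TPM and Marco at 3.52 ± 1.07 TPM. The markers of resident macrophages Timd4 and Clec4f, and Retnla, had 0 counts in all 3 libraries. Of the 35 genes, 20 also stand in another list here, among them the lysosomal proteases. In bulk RNA, more cells of a type and more RNA per cell cannot be told apart, so whether all cells or some of them carried these transcripts was not measured.

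**Figure D2:**
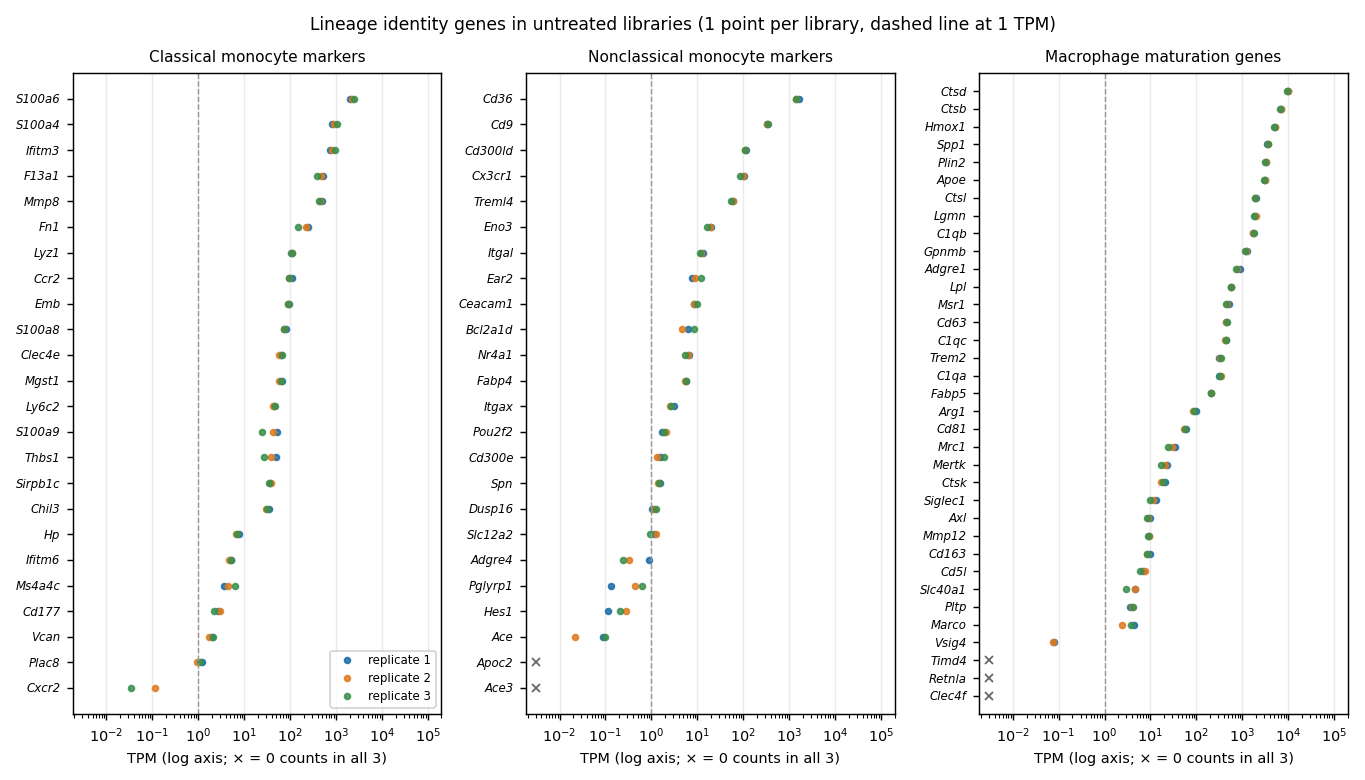
TPM (log axis) of classical monocyte, nonclassical monocyte and macrophage maturation genes, 1 point per untreated library. A cross marks a gene with 0 counts in all 3, a library at 0 is otherwise not drawn, and the dashed line is 1 TPM. Of the macrophage maturation genes 10 of 35 lie at a mean of 1000 TPM or more, against 1 of 24 in each of the other lists.

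The machinery that senses LPS was nearly complete, with 17 of 18 genes expressed. Tlr4, the signalling receptor, stood at 39.6, 30.9 and 26.9 TPM in replicates 1, 2 and 3, highest in replicate 1. Its partner gene Ly96, which encodes MD-2, stood at 106, 96.1 and 113 TPM. Cd14 was at 12.3 ± 2.74 times Tlr4 (SD, n = 3), and at 3.84 times with the median transcript length. The adaptor gene Myd88 had 109 ± 2.67 TPM, the kinase gene Irak1 85.8 ± 5.18 TPM and the inhibitor gene Tollip 68.6 ± 6.61 TPM. Only Lbp of the list, a serum protein known to carry LPS, was not expressed, with 21, 15 and 21 counts.

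Among other pattern recognition receptors 26 of 31 were expressed, led by C-type lectins. Clec4d, a receptor for mycobacterial glycolipid, stood at 1189, 1269 and 1332 TPM and Clec4n, dectin-2, at 431, 416 and 410.1 TPM. Tlr13, a receptor for bacterial ribosomal RNA, stood at 360.3, 311 and 259.7 TPM, higher than Tlr4 in every library. Tlr2, a receptor for bacterial lipoproteins, stood at 118, 102 and 88.6 TPM, which was 3.19 ± 0.178 times Tlr4, but 0.721 times under the median transcript length. Tlr7, a receptor for RNA in endosomes, had 50.8 ± 6.18 TPM. Tlr11 had 0 counts, and Tlr9, named after its values were seen, had 2, 4 and 6 counts.

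Of 45 growth factor and cytokine receptors, 31 were expressed. After Csf1r came Csf2ra, the GM-CSF receptor alpha chain (324 ± 15.1 TPM). Further down the list were Tnfrsf1a (219 ± 7.65 TPM) and Tnfrsf1b (148 ± 14.1 TPM) for tumour necrosis factor, Il10rb (193 ± 9.07 TPM), and Ifngr1 and Ifngr2 (171 ± 9.61 and 158 ± 4.21 TPM) for interferon gamma. Tnfrsf11a, which encodes RANK, stood at 157 ± 15.2 TPM. The G-CSF receptor Csf3r, named after its values were seen, stood at 19.5 ± 2.59 TPM, and Csf1r was 39.7 ± 1.78 times as high (92.1 times with the median transcript length). Flt3, a receptor of progenitors and dendritic cells, had 11, 14 and 8 counts. The genes Il2ra, Il18r1 and Osmr had 0 counts in all 3 libraries.

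Chemoattractant receptors were led by the complement receptors. C5ar1, for the fragment C5a, stood at 2659, 2567 and 2482 TPM and C3ar1, for C3a, at 939.6, 853 and 789.7 TPM, both highest in replicate 1. Gpr183, an oxysterol receptor, had 131 ± 3.47 TPM and the chemokine receptor Ccr1 115 ± 12.8 TPM, with a range over libraries that overlapped that of Ccr2. Of 34 receptors, 20 were expressed (58.8%, against 45.0% of all nuclear protein-coding genes), and Ccr4, Ccr6, Ccr8 and Ackr3 had 0 counts. Among Fc and complement receptors 13 of 21 were expressed. Fcgr3, the low-affinity activating receptor for IgG, stood at 858, 853 and 855 TPM and Fcgr1, the high-affinity one, at 195, 208 and 205 TPM. The inhibitory receptor Fcgr2b, named after its values were seen, had 17.1 ± 0.567 TPM.

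Scavenger and lipid receptors were expressed for 23 of 30 genes. Msr1, the class A scavenger receptor, had 480.3 ± 39.7 TPM, Stab1 330.0 ± 38.2 TPM and Lrp1, which takes up apolipoprotein E particles, 251 ± 48.2 TPM. Of 39 genes for receptors that can meet platelets or their products, 28 were expressed in these libraries, which received no platelets. Selplg, which encodes the P-selectin ligand PSGL-1, stood at 111, 112 and 107 TPM. The integrin chains Itgb2 and Itgam, which form Mac-1, had 1232 ± 96.9 and 115 ± 13.5 TPM, and the nucleotide receptor P2ry6 281 ± 6.79 TPM. Of 43 paired activating and inhibitory receptors with their adaptors 34 were expressed, among them Sirpa, the CD47 receptor (633 ± 68.4 TPM), Cd300lb (342 ± 19.5 TPM) and Lilr4b (202 ± 8.63 TPM). Members of the Clec4a, Cd300 and Lilr families are similar in sequence, and reads shared between them are uncertain.

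**Figure D3:**
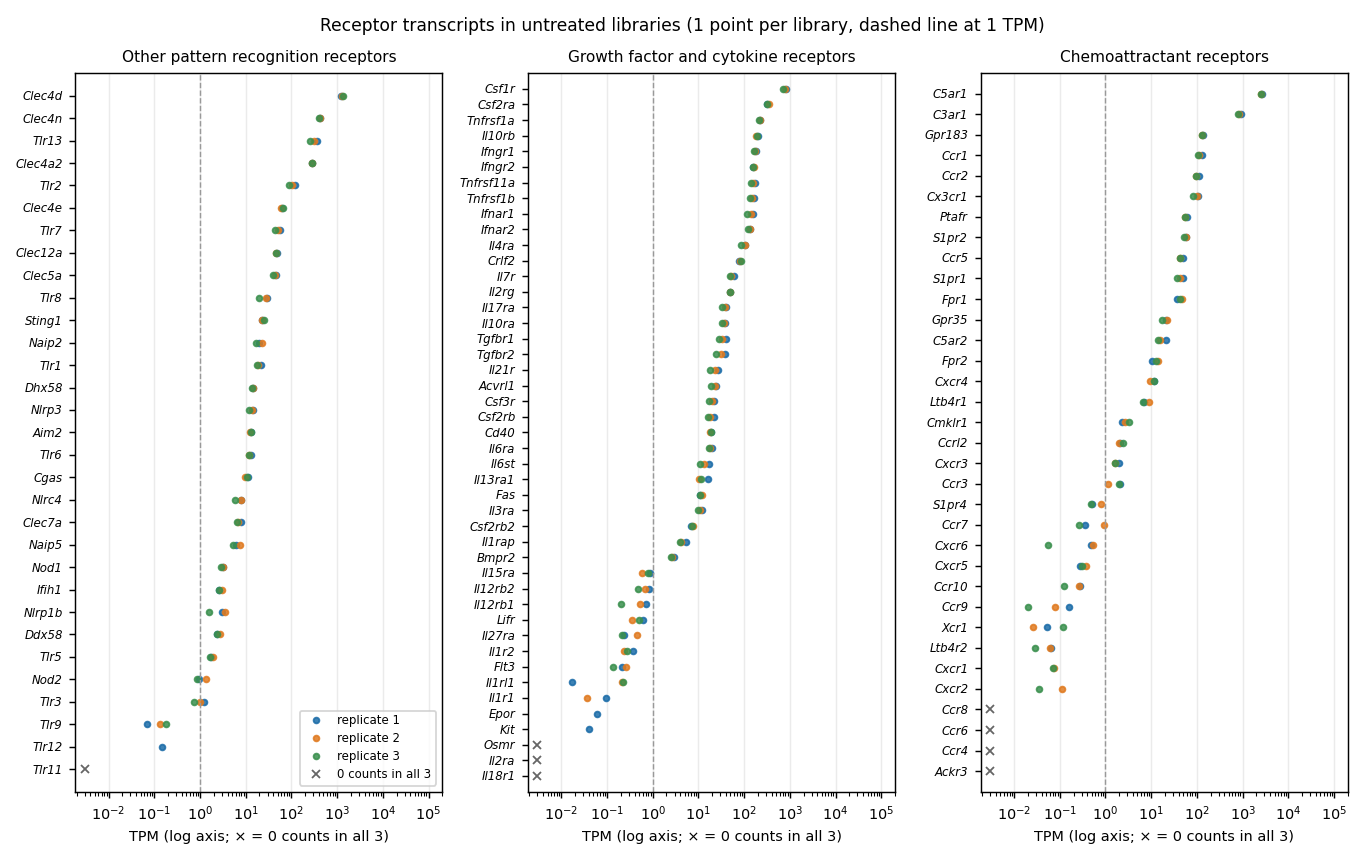
TPM (log axis) of pattern recognition receptors, growth factor and cytokine receptors, and chemoattractant receptors, 1 point per untreated library. A cross marks 0 counts in all 3 libraries, and a library at 0 is otherwise not drawn. C5ar1 is highest of those shown, between 2482 and 2659 TPM, and Tlr11, Il2ra and Ccr6 are among the genes at 0.

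Transcription factors of the myeloid lineage were expressed for 48 of 55 genes. Spi1, which encodes PU.1, stood at 497, 561 and 549.8 TPM in replicates 1, 2 and 3. Cebpb, a factor of monocyte and macrophage genes, stood at 700.3, 743 and 760.3 TPM. The order of the pair is not settled, since Cebpb was 1.37 ± 0.0435 times Spi1 (SD, n = 3), but 0.294 times with the median transcript length. Irf8, needed for monocyte formation, stood at 139, 144 and 135 TPM, and Cebpa, a factor of earlier myeloid progenitors, at 76.7, 81.5 and 73.6 TPM. Zeb2 had 36.6 ± 4.56 TPM and Klf4, known for its part in monocyte differentiation, only 4.07, 4.88 and 4.71 TPM. The inhibitors of basic helix-loop-helix factors Id1, Id2 and Id3 had 274 ± 10.1, 156 ± 4.93 and 128 ± 11.6 TPM. The progenitor factors Myb (1, 0 and 12 counts) and Gfi1 (1, 0 and 0 counts), named after their values were seen, were not expressed.

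Of the interferon regulatory, STAT and NF-kB factors 27 of 29 were expressed. Irf5, which acts below Toll-like receptors, stood at 542, 528 and 513 TPM and was 3.79 ± 0.120 times Irf8, and 1.91 times with the median transcript length. Nfkbia, the inhibitor of NF-kB, stood at 499.9, 519 and 511 TPM, Stat6, the signal of interleukin-4, at 202 ± 19.4 TPM and the NF-kB subunit Rela at 118 ± 5.48 TPM. Immediate early and stress factors were expressed for 23 of 28 genes, with Jun at 272 ± 26.3, Fos at 258 ± 5.67, Atf3 at 241 ± 16.6 and Junb at 223 ± 2.32 TPM, while Egr4 and Nr4a3 had 0 counts. Of 32 nuclear receptors and metabolic factors 22 were expressed. Xbp1, of the unfolded protein response, had 282 ± 5.94 TPM, Nfe2l2, which encodes NRF2, 123 ± 0.468 TPM, Hif1a 81.3 ± 13.95 TPM and Pparg, a lipid-sensing factor of macrophages, 46.7 ± 1.12 TPM.

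Factors of other blood lineages were mostly low, with 7 of 28 expressed and 13 at 3 counts or fewer in each library. Tcf3, which many cells carry, had 47.6 ± 3.58 TPM and Zbtb7b 14.6 ± 1.10 TPM. The B cell factors Pax5 and Pou2af1, the T and NK cell factor Eomes, and the stem cell factors Hoxa9 and Mecom had 0 counts. Gata1, the erythroid and megakaryocyte factor, had 1, 0 and 0 counts (named after its values were seen).

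**Figure D4:**
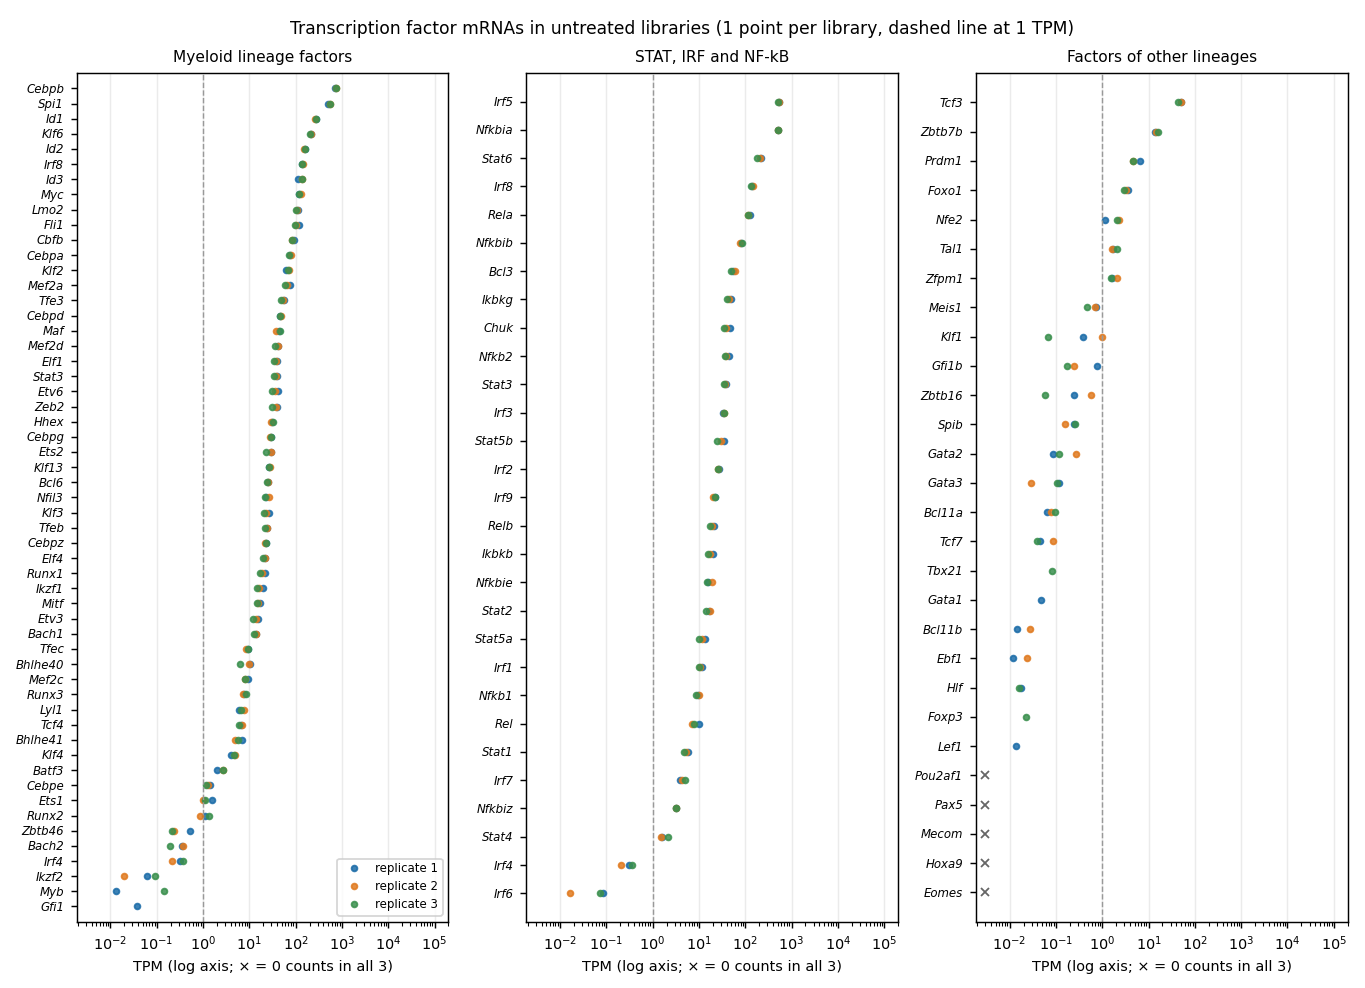
TPM (log axis) of transcription factor genes of the myeloid lineage, the STAT, IRF and NF-kB families, and other blood lineages, 1 point per untreated library. A cross marks 0 counts in all 3 libraries, and a library at 0 is otherwise not drawn. In the first 2 panels 48 of 55 and 27 of 29 genes are expressed, and in the panel of other lineages 7 of 28.

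Some genes listed as markers of platelets and megakaryocytes were expressed, although no platelets had been added. Which cells carried these transcripts was not measured. Of 23 markers 6 were expressed (26.1%), a lower share than the 45.0% of all nuclear protein-coding genes. Of the list, 6 genes also stand in another list, such as Thbs1 in that of classical monocytes. Beside Pf4 stood Rap1b, a small GTPase of many cell types, at 1069, 913 and 949 TPM, and Ppbp, which encodes the platelet basic protein, at 759.6, 718 and 696 TPM. The matrix protein gene Thbs1 stood at 50.7, 38.0 and 27.5 TPM and was highest in replicate 1, and Gng11 was low at 6.30, 5.85 and 6.96 TPM. Pf4 was 23.8 ± 2.15 times Ppbp, and 29.2 and 41.8 times with the longest and the median transcript length. Itga2b, the alpha chain of the platelet fibrinogen receptor, had 9, 5 and 2 counts, and Gp1bb, Gp5, Gp6, Selp and Cavin2 had 0 counts in all 3 libraries. The sum of the list was 1.85 to 1.98% of TPM, and 1680.3 to 1890.3 TPM without Pf4.

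Neutrophil markers were expressed for 12 of 20 genes, although 8 of the list also stand in another list. Mmp8, a collagenase of granulocytes, stood at 487, 458 and 425 TPM. Ngp, a neutrophil granule protein gene, had 123, 163 and 86 counts and was lowest in replicate 3, as S100a9 was. Ly6g, the defining surface marker, and Stfa2l1 and Mrgpra2a had 0 counts, which for Ly6g allows up to 0.377 TPM at 3 counts. Of the granule genes of progenitors Mpo had 0, 6 and 0 counts and Elane 6, 1 and 0. Of the 14 measured members of that list 5 were expressed, led by Calr (1362 ± 8.74 TPM), a chaperone gene active in many cell types. Of 14 stem and progenitor markers 6 were expressed (42.9%, against 45.0% of all nuclear protein-coding genes), and 2 were at a threshold of 5 TPM. Cdk6, a cell cycle kinase, was the highest of them at 22.5 ± 1.08 TPM.

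Most lymphoid, erythroid, mast cell and stromal markers were not expressed. Cd3e of T cells and Ncr1 of NK cells had 0 counts in every library. Expressed were 3 of 18 B and plasma cell markers, 2 of 18 T cell markers and 1 of 15 NK cell markers. The expressed B cell markers were Ighm, the heavy chain of IgM (32.0 ± 5.05 TPM), Blnk, a signalling adaptor (26.1 ± 1.03 TPM), and Cd79b, a chain of the B cell receptor (6.78 ± 1.23 TPM, 81, 70 and 110 counts). Those of T cells were Il7r, the interleukin-7 receptor (53.8 ± 5.93 TPM), and the costimulatory receptor Cd28 (3.76 ± 0.610 TPM), and that of NK cells was Klrd1 (2.43 ± 0.678 TPM, 34, 20 and 29 counts). Tfrc, the transferrin receptor used by many cells, led 3 of 14 erythroid markers at 107 ± 18.3 TPM, while the globin gene Hbb-bs had 15, 24 and 16 counts and Hba-a1, which shares reads with Hba-a2, 6, 8 and 7.

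Among 18 conventional dendritic cell markers 7 were expressed (38.9%, against 45.0% of all nuclear protein-coding genes), with Cd24a at 51.4 ± 2.14 TPM. Of 14 plasmacytoid markers 3 were, led by Bst2 (325 ± 14.5 TPM), which is also an interferon-stimulated gene, while the defining Siglech had 20, 21 and 13 counts. Without replicate 2, 5 of the plasmacytoid markers were expressed. The basophil protease gene Mcpt8 had 4, 14 and 7 counts, and 1 of 16 basophil and mast cell markers, 1 of 9 eosinophil markers and 2 of 19 stromal and endothelial markers were expressed. Of the last, Acta2, smooth muscle actin, had 9.31 ± 1.01 TPM (171, 199 and 175 counts) and Kitl, the KIT ligand, 1.04 ± 0.0195 TPM. Osteoclast genes were expressed for 8 of 12, and 5 of them were at 10 TPM or more in every library. Among the 8 were Nfatc1, Ctsk and Acp5 (15.0 ± 1.20 TPM). Dcstamp, Mmp9 and Atp6v0d2, named after their values were seen, were expressed as well. Tnfrsf11a and Clcn7, a lysosomal chloride transporter (60.4 ± 4.31 TPM), are also genes of macrophages, and Calcr, the calcitonin receptor of mature osteoclasts, had 0 counts.

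**Figure D5:**
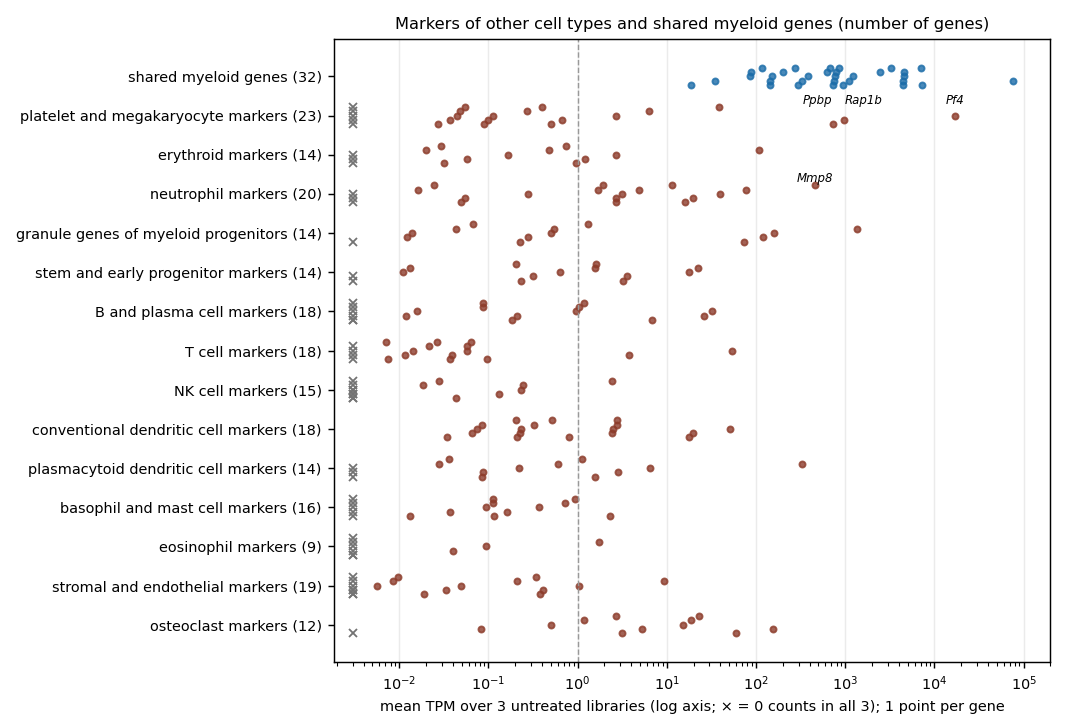
Mean TPM over the 3 untreated libraries (log axis), 1 point per gene, for marker lists of other cell types and for the shared myeloid genes in the top row. Crosses are genes with 0 counts in all 3 libraries, and the dashed line is 1 TPM. All 32 shared myeloid genes lie above 10 TPM, while Pf4 (17212 TPM) stands apart among platelet markers.

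Secreted factors were expressed for 29 of 48 genes without an added stimulus. After Pf4, the CCR2 ligands Ccl2 and Ccl7 stood at 3922, 3769 and 4082 and 3857, 3410.0 and 3588 TPM in replicates 1, 2 and 3. The other CC chemokines Ccl6 and Ccl9 had 2395 ± 132 and 1678 ± 50.8 TPM, Grn, progranulin, 2426 ± 91.4 TPM and Mif 829 ± 30.1 TPM. The inflammatory cytokine genes Tnf (61.0 ± 1.58 TPM), Il1b (22, 39 and 26 counts) and Il6 (0, 0 and 1 counts) were lower, named after their values were seen. Csf2, Ifnb1, Il12a, Il12b, Ccl8 and Cxcl9 had 0 counts.

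The list for major histocompatibility complex (MHC) class I also holds genes of antigen processing, such as Calr, Pdia3 and Canx. Of its 18 genes 16 were expressed, with B2m, the light chain of class I, at 1734, 1654 and 1895 TPM and H2-D1 at 1484, 1536 and 1489.8 TPM. The list for class II also holds genes that are not class II chains, such as Ctss, its highest member, and Ifi30. Of its 16 genes 10 were expressed, with Cd74, the invariant chain of class II, at 236, 264 and 260.3 TPM and H2-Ab1 at 62.4, 74.1 and 67.2 TPM. The median level was 66.6 TPM in the class I list and 14.3 TPM in the class II list. Related H2 genes can share reads. Lysosomal genes were expressed for 31 of 34 and held 5.32 to 5.53% of TPM, and 12 of them reached a mean of 1000 TPM. Of 13 genes of iron handling 12 were expressed, among them Slc11a1, the phagosomal metal transporter, at 874 ± 34.2 TPM.

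All 36 genes of the cell cycle list were expressed, with a median of 40.4 TPM. The highest was Cdkn1a, the inhibitor p21, at 609.7, 617 and 655 TPM. Pcna, the replication clamp, had 200.0 ± 4.38 TPM, the helicase subunit genes Mcm6 and Mcm3 125 ± 8.92 and 100.4 ± 5.18 TPM, and Mki67, found in dividing cells, 18.6, 19.3 and 15.0 TPM. Of 47 interferon-stimulated genes 25 were expressed (53.2%, against 45.0% of all nuclear protein-coding genes). The median of the whole list was 1.36 TPM, and 12 genes were at 5 TPM or more in every library. Ifitm3, which restricts virus entry, was highest at 833 ± 109 TPM, and Gbp5 and Ifi44l had 0 counts.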

How the data were processed

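The authors deposited raw read counts per gene name, whole numbers that are not normalized, for 53819 names in each library. Per the labels' protocols, total RNA was isolated with a column kit, and cDNA amplified from a low input went into Nextera XT library preparation. Per the submitters' processing notes, the tools were Salmon 1.5.2, featureCounts, Subread 2.0.1, STAR 2.7.9a and fastp 0.23.1, with no role or order. The build, the annotation, the strand setting and the treatment of shared reads are not stated in those notes or labels. Without strand, reads of overlapping genes cannot be told apart. The libraries carry no stated molecular identifiers and PCR copies are not separate molecules, so a floor of 3 counts covers counting error only.

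CPM used the TMM factors of edgeR 4.0.16 (R 4.3.3) over the 3 untreated libraries. TPM used the union of exons of GENCODE M21 (GRCm38), found for 49951 names by symbol, 51 by Ensembl ID and 564 by RefSeq symbol or synonym. The 3253 names without a length held 0.413 to 0.499% of counts, mostly the ribosomal RNA Rn18s. The common dispersion came from edgeR, also with DESeq2 1.42.0 size factors. Values are means ± SD over 3 libraries, and a check for a library deposited more than once found none (chi-square of counts per degree of freedom 6.75 to 18.2 between pairs). The dispersion and TPM steps were tested on simulated data.

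The 39 gene lists name 855 genes, of which 851 were found, and no levels are given under the names Ahsp, Azu1, Clec6a and Gp49a. Further genes of the lists are not reported here and stand in no count of a list. The members and lists were chosen with earlier results of these data known. Named are the 20 highest nuclear coding genes, up to 8 highest members of each list (5 for lists of other cell types), 38 key genes, the 10 coding genes of 10 TPM or more that varied most, members at 0, and near-identical partners. A gene outside this rule is marked as named after its values were seen. Ratio pairs, the 4 motifs and the printed windows were chosen after the levels were seen. A first choice of 8 windows held a match in 2 only (Ctsd and Pf4), and the other 6 were replaced by Cd68 and Ctss. Alternatives were other lengths, thresholds and scalings, no filter, and leaving out each library.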

Additional observations from a re-analysis of the deposited data

How the results depend on the processing

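The count of expressed genes, 10758, ran from 8203 at 5 TPM to 11727 at 0.5 TPM, and that of expressed list members, 550, from 458 to 573, both within 1.5 times. The 100 highest genes held 29.7% of counts but 41.1% of TPM. Leaving out 1 library gave 10921 to 10988 expressed genes and 551 to 557 list members. These counts can only stay or rise, since fewer libraries must then reach 1 TPM. With 1 library left out, the 100 highest genes held 29.4 to 30.1% of counts, and the coefficient of variation was 6.63 to 10.7%. That coefficient was 8.66% with DESeq2 size factors, 8.84% with library size alone, 9.48% without a filter and 8.68% with at least 10 counts in every library. The length of the longest transcript moved 984 of 10758 expressed genes (9.15%) by over 1.5 times, among them the key genes Irf8, Lpl and Zeb2, and the median transcript length moved 7193 (66.9%), among them 27 of the 38 key genes. The highest gene of a list was the same in 37 of 39 lists with the longest transcript and in 31 by CPM. Of the other values, for single lists and genes, 578 stayed within 1.5 times (counts of members) or 1 SD (levels) and 79 did not, mostly levels under another length and counts of list members under another threshold. The 578 include mean levels with 1 library left out. Such a mean always lies within 1 SD of the mean of all 3, so these levels could not move and say nothing on stability. At 5 TPM, the 25 expressed interferon-stimulated genes became 12, the 17 nonclassical markers 11, the 12 neutrophil markers 6, the 8 osteoclast genes 5, the 7 dendritic cell markers 3 and the 7 factors of other lineages 2. Without replicate 2, the expressed plasmacytoid markers went from 3 to 5, the only count of a list that leaving out a library moved by over 1.5 times. No paired analysis was possible because there is 1 group and no result comes from a test.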

Other observations

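Among 6715 nuclear protein-coding genes of at least 10 TPM, the highest library exceeded the lowest by a median of 1.13 times in CPM, and 51 genes reached 1.5 times and 3 reached 2 times. The widest were Sft2d3, at 6.02, 10.6 and 13.2 CPM in replicates 1, 2 and 3, and the predicted genes Gm11808, at 1.251, 1.57 and 2.72 CPM, and Gm10073, at 3.15, 3.75 and 6.32 CPM, all highest in replicate 3. Next came Ngp, at 4.97, 6.58 and 3.34 CPM, and Ufsp1, at 2.58, 4.92 and 4.70 CPM. Nr2c2ap stood at 4.64, 6.90 and 8.73 CPM and S100a9 at 9.08, 7.75 and 4.85 CPM. Rpl10-ps3 and Gm2000, which resemble ribosomal protein genes and may share their reads, stood at 9.12, 7.95 and 14.8 and 8.72, 8.23 and 15.2 CPM. Dennd4c, at 63.1, 51.5 and 34.5 CPM, was lowest in replicate 3. Of the 51 genes, replicate 3 was the highest library for 21 and the lowest for 20. Replicate 1 was the highest for 20 and the lowest for 21, and replicate 2 for 10 and 10.

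Mitochondrially encoded genes held 0.472 to 0.566% of counts. Of 15 listed, 10 were expressed, led by the ribosomal RNA mt-Rnr2 at 3618 ± 384 TPM and the coding genes mt-Nd1 at 1924 ± 199 and mt-Cytb at 1793 ± 60.9 TPM. The other 5, mt-Co2, mt-Co3, mt-Atp6, mt-Atp8 and mt-Nd4l, had 0 counts in all 3 libraries. The share of counts therefore includes no reads of these genes. Of 84 cytosolic ribosomal protein genes, 81 were expressed, and they held 4.16 to 4.87% of TPM. Of 9281 genes of long noncoding classes 386 were expressed, and of 12730 pseudogenes 417.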
